A study of Homo sapiens with 2 samples.

Results

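The RNA output of human chromosome 10 was compared, gene by gene and along the length of the chromosome, between 2 libraries of LM3 cells. The members were all transcript start and transcript end events that the deposited tables place on chromosome 10, added up by gene symbol. They gave 1304 genes of the 33738 in the whole series, 353 on the short arm (10p) and 951 on the long arm (10q). Of these, 688 were listed at 0 in both libraries, 178 were above 0 but under 1 FPKM (a level per transcript length and library size), and 438 reached 1 FPKM in at least 1 library and are called measured. The measured genes, 102 on 10p and 336 on 10q, are set against 10481 measured genes of the other chromosomes, chromosome Y left out.

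LM3 is a line of human hepatocellular carcinoma, the commonest cancer that arises from liver cells. One library came from cells whose genotype is given as NCOA5 knockout and the other from cells given as wild type. NCOA5 encodes a coregulator of nuclear receptors. Neither the way the knockout was made nor whether the cells were 1 clone or a pool is given in the sources used here. Each genotype had 1 library, so no value has a replicate check, no test was possible, and every difference is one between these libraries and not between the genotypes.

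The targeted gene was read first. NCOA5 stood at 25.4 FPKM in the knockout-labelled library and 20.03 FPKM in wild type, a log2 ratio of 0.33, so its total level was not lower under the knockout label. The library is called knockout-labelled for that reason. Chromosome 10 was singled out because its genes had low ratios in these same libraries, so its overall ratio is a description of how it was chosen and nothing is supported with it. The epithelial keratins KRT8 (2217 FPKM knockout-labelled, 2094 FPKM wild type) and KRT18 (846 and 831 FPKM, in the same order) were abundant. Of the liver markers, TF, AFP, FGB and ALB were between 1.37 and 15.4 FPKM in both libraries, while APOA1, APOB, SERPINA1 and TTR stayed under 1 FPKM, as did the epithelial marker EPCAM. Of 9 leukocyte, endothelial and fibroblast markers, 8 were under 1 FPKM in both libraries, and the endothelial marker PECAM1 was at 1.20 FPKM in the knockout-labelled library and 1.28 FPKM in wild type.

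A transcript start event is the first exon of a transcript form and an end event is its last exon, each with the FPKM of the forms that use it. A gene's start events together, or its end events together, therefore stand for its whole output, provided that all of them are listed. The gene value used here was the larger of the summed starts and the summed ends. Poly-A RNA measures the standing level of messages, which is set by both their synthesis and their decay. Chromosome 10 is a middle-sized autosome with no single function. It holds the hexokinase pair HK1 and HKDC1, the AKR1C cluster of aldo-keto reductases, and enzymes of sterol and fatty acid synthesis. The log2 ratio throughout sets the knockout-labelled FPKM over the wild-type FPKM after 1 was added to each, so differences between low values look smaller than they are.

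Promoters of 5 genes are shown first, because 4 of them are among the lowest ratios of the chromosome and the last, SUV39H2, is among the highest. They were picked by hand after the values were seen. The sequences are from RefSeq (GRCh38.p14), lie before the RefSeq and the deposited start, and are kept to bases outside every exon of GENCODE 29. They are the stretches for DDIT4 (chr10:72273674-72273919, plus strand), PCGF6 (chr10:103351145-103351390, minus strand), SCD (chr10:100346983-100347123, plus strand), OLMALINC (chr10:100373326-100373512, plus strand) and SUV39H2 (chr10:14878687-14878819, plus strand). Capitals mark matches on either strand to the CCAAT box (CCAAT, bound by NF-Y), to the core of the hypoxia response element (ACGTG) and to the composite CCAAT enhancer element of ATF4 (TGATGCAA).
DDIT4: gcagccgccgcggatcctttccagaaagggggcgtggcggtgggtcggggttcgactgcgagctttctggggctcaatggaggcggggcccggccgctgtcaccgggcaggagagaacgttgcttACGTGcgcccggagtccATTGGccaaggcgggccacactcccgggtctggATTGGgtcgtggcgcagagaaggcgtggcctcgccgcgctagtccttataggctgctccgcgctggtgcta
PCGF6: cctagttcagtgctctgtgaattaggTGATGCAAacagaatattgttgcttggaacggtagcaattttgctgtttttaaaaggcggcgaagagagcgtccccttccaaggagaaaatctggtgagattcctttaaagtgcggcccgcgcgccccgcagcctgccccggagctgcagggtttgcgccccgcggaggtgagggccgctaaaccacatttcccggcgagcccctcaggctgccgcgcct
SCD: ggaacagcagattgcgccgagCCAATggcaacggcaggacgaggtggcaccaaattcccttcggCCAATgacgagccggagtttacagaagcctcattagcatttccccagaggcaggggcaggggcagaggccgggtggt
OLMALINC: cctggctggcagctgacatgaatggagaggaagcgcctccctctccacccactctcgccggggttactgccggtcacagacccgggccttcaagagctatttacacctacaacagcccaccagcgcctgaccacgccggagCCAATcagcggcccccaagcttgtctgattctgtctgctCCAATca
SUV39H2: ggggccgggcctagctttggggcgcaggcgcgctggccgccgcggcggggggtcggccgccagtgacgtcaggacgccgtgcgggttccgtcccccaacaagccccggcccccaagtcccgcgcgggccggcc

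DDIT4 held 2 CCAAT matches and 1 ACGTG match, PCGF6 1 TGATGCAA match, and SCD and OLMALINC 2 CCAAT matches each, with no overlap between motifs. SUV39H2 held none of these letters in this stretch. Over the 250 bases before the start, CCAAT was present in 32.0% of 35116 promoters of the genome and 30.6% of 572 promoters of measured chromosome 10 genes, and ACGTG in 18.5% of the 35116 and 21.9% of the 572. TGATGCAA was rarer, in 0.772% of the 35116 promoters and in 8 of the 572, or 1.40%. Promoters were matched for 351 of the 438 measured genes. A match is a run of letters and not a bound site.

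Chromosome 10 genes were a little lower in the knockout-labelled library almost wherever they lay, and few differed by much. The median log2 ratio was −0.19, a fold of 0.877, and the middle 50% of genes lay between −0.38 and 0.02. On the other chromosomes the median was 0.018 and the middle 50% lay between −0.19 and 0.21. On chromosome 10, 324 of 438 genes (74.0%) were below 0, where 48.6% of all 10929 measured genes of the series and 47.5% of those on the other chromosomes were. The chromosome was chosen on this quantity, so nothing is read from the gap.

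Large differences were counted by the 2-fold rule, with a missing value entered as 0. On chromosome 10, 16 genes (3.65%) were lower by 2-fold or more, where 3.66% of all measured genes were. Another 9 (2.05%) were higher by 2-fold or more, where 2.74% of all measured genes were, and 370 of 438 (84.5%) lay within 1.5-fold, against 85.7% on the other chromosomes. The spread was alike as well, with an interquartile range of 0.402 on chromosome 10 and 0.397 elsewhere. At a log2 ratio of −0.5 the share of genes below was 14.6% on chromosome 10 and 9.61% elsewhere, and at 0.2 it was 89.0% and 74.4%, in the same order.

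**Figure D1:**
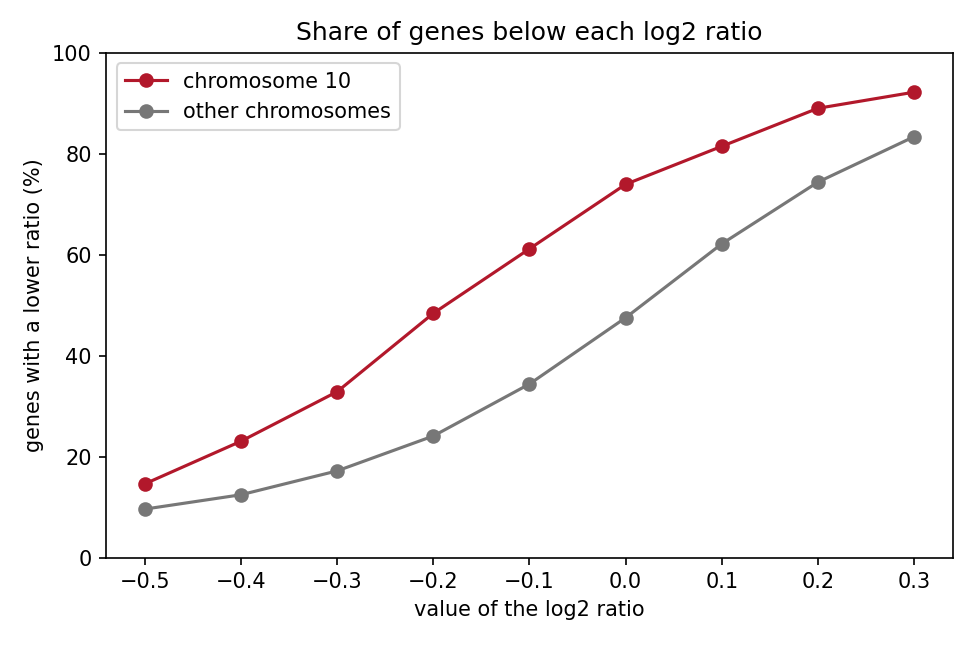
The share of measured genes (vertical axis, percent) with a log2 ratio below each value on the horizontal axis, for 438 chromosome 10 genes (red) and 10481 genes of the other chromosomes (grey). The red curve lies above the grey one at every value drawn, by 5.0 points at −0.5 and by 26.4 points at 0.

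Among the 327 chromosome 10 genes that were above 0 in both libraries and reached 5 FPKM in the larger one, the plain ratio of knockout-labelled to wild-type FPKM, with no pseudocount, had a median of 0.858 and a middle 50% between 0.754 and 0.970. The median was 0.906 over 74 genes of 10p and 0.845 over 253 genes of 10q. On the other chromosomes 7844 such genes had a median of 1.013. In this set 80.7% of chromosome 10 genes were below 1, where 48.7% of all 8175 genes were. Lower by 2-fold or more on the log2 scale were 9 of the 327 (2.75%), where 1.72% of the 8175 were, and 1 (0.306%) was higher, where 1.02% of the 8175 were. That gene was CEP164P1, read from starts alone.

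The lower ratio was present at each expression level, and was clearest where the level was high. Genes with a mean of both libraries from 1 to 5 FPKM had a median log2 ratio of −0.09, with 56.4% of 110 below 0. From 5 to 20 FPKM the median was −0.18, from 20 to 100 FPKM it was −0.22 with 87.7% of 122 genes below 0, and at 100 FPKM and more it was −0.29 with 18 of 19 genes below 0. On the plain ratio, which has no pseudocount to pull low genes to 0, the 3 upper levels had medians of 0.873, 0.853 and 0.814. The same levels on the other chromosomes had 1.023, 1.005 and 0.991.

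The ratio was alike on both strands, with −0.21 over 233 genes of the plus strand and −0.18 over 205 of the minus strand. Genes that span under 20 kb had a median of −0.24, those from 20 to 100 kb −0.18 and those of 100 kb and more −0.18. On the other chromosomes the same spans had −0.009, 0.031 and 0.037, so the shortest genes were lowest there too. The 413 protein-coding genes had −0.19 and the 25 others −0.11. Where start and end sums were within 5% of each other in both libraries, which leaves the least room for a missing event, 220 genes had a median of −0.18 and 77.7% of them were below 0.

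As a share of all FPKM summed over genes, chromosome 10 made up 2.59% in the knockout-labelled library and 3.14% in wild type. The AKR1C genes and RPS24 together hold a large part of that sum. With them left out the shares were 1.89% in the knockout-labelled library and 2.22% in wild type.

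Chromosome 10 had the lowest median of the 23 chromosomes compared. Chromosome 19 followed with −0.08 over 722 genes and chromosome 12 with −0.04, and the highest was chromosome 13 with 0.087. A segment of another chromosome was as low: 209 genes of chromosome 2 from 180 Mb to its end had a median of −0.19, and 75.6% of them were below 0.

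**Figure D2:**
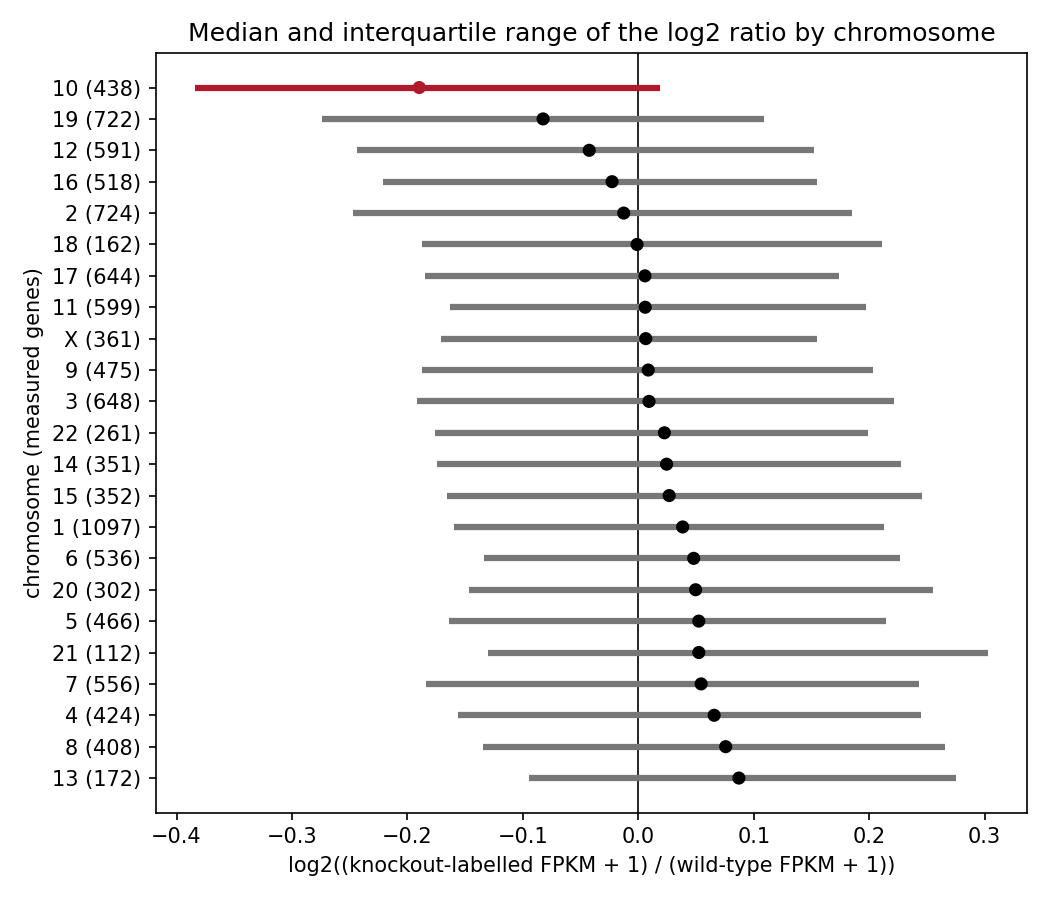
Median (point) and interquartile range (bar) of the log2 ratio of measured genes by chromosome, with the number of genes in brackets. Chromosome 10 is drawn on top in red, with its median at −0.19. The medians of the others run from −0.08 for chromosome 19 to 0.087 for chromosome 13.

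Both arms were on the same side of 0. The arms were divided at 40 Mb, in the gap between ZNF37A, which ends at 38.1 Mb on 10p, and ZNF37BP, which starts at 42.5 Mb on 10q. The 102 genes of 10p had a median of −0.13 with 71.6% below 0, and the 336 genes of 10q had −0.20 with 74.7% below 0. Of the genes that differed by 2-fold or more, 4 lower (3.92% of the arm) and 3 higher (2.94%) were on 10p, and 12 lower (3.57%) and 6 higher (1.79%) were on 10q. These shares lie near the 3.66% lower and 2.74% higher among all measured genes.

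In 14 windows of 10 Mb, each with 14 or more measured genes, every median was below 0. On 10p they ran from −0.10 in the first 10 Mb to −0.11, −0.18 and −0.19 toward the centromere. On 10q the window from 50 to 60 Mb, with 14 genes, was nearest 0 at −0.04, and the window from 100 to 110 Mb, with 53 genes, was lowest at −0.29, with 44 of its genes below 0 and 4 lower by 2-fold or more. The last window, with 14 genes from 130 Mb, had −0.28. Of the 14 windows 13 had −0.1 or less. On the other chromosomes 83 of 268 windows had a median below 0 and 13 (4.85%) had −0.1 or less.

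A finer view used the running median of 31 neighbouring genes. All 408 positions were below 0. The value nearest 0 was −0.07, over the genes from AGAP6 to SLC25A16 between 49.98 and 68.5 Mb, and the lowest was −0.39, over those from ZFYVE27 to DPCD between 97.7 and 101.6 Mb. The longest unbroken run of genes below 0 had 17, from LRRC20 to ECD at 70.3 to 73.2 Mb. The next had 14, from CCAR1 to AIFM2 at 68.7 to 70.1 Mb, and 13, from LCOR to ZFYVE27 at 96.8 to 97.8 Mb. In the other direction no more than 4 neighbours in a row were at or above 0, the longest such run being TRDMT1 to HACD1 at 17.1 to 17.6 Mb.

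**Figure D3:**
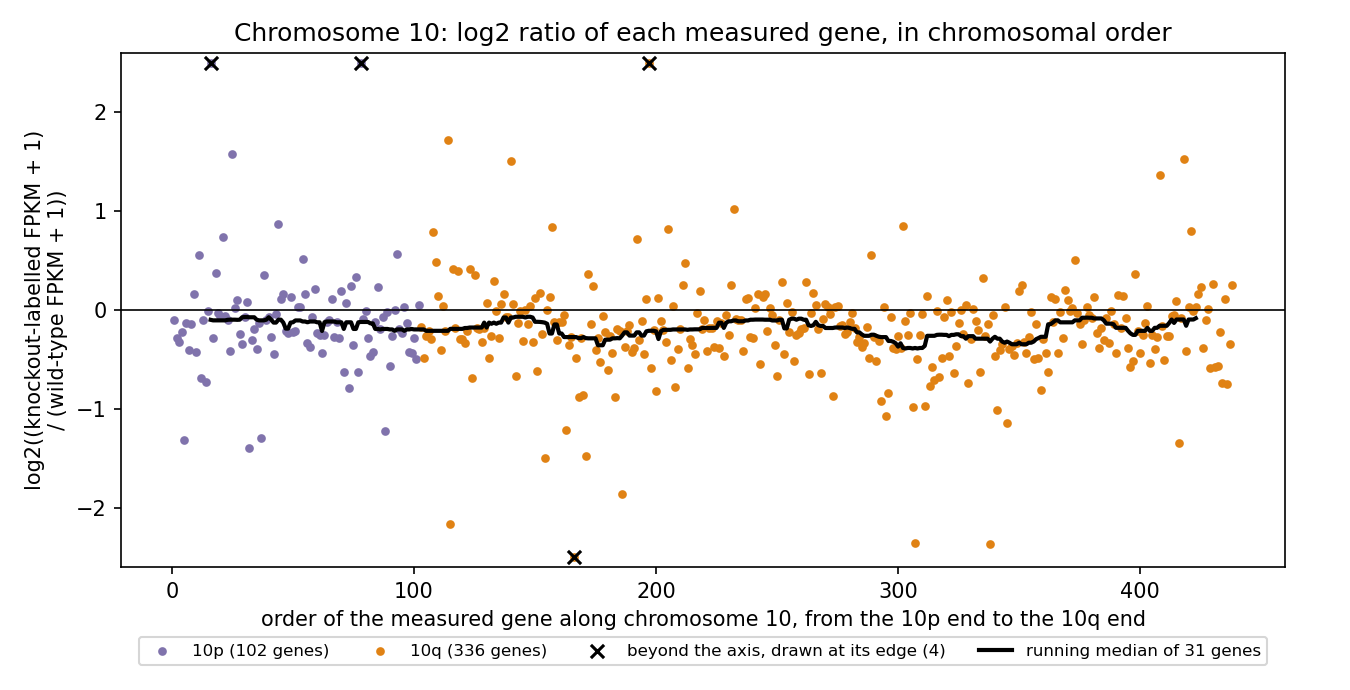
Log2 ratio of each of the 438 measured genes (points, 10p purple and 10q orange) in chromosomal order along the horizontal axis, with the running median of 31 genes as a black line. The line stays below 0 along its whole length, between −0.39 and −0.07, and the 4 crosses are HKDC1, MASTL, GLUD1P3 and AKR1C7P, which are listed at 0 or have no assigned event in 1 library.

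The interval from 97.7 to 101.6 Mb held 31 genes of varied roles, of which 27 were below 0. It was found by its low ratio, so its values are a description. GOT1, SCD and OLMALINC lie in it and are described with the lowest genes. MRPL43, a protein of the mitochondrial ribosome, was at 43.3 FPKM in the knockout-labelled library and 85.7 FPKM in wild type, a log2 ratio of −0.97. HPS1, mutated in a form of albinism with a bleeding defect, was at 15.6 FPKM knockout-labelled and 30.5 FPKM wild type (−0.92, from starts alone). SLC25A28, an iron carrier of the inner mitochondrial membrane, was at 5.88 FPKM knockout-labelled and 11.3 FPKM wild type (−0.84).

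Smaller ratios in the interval included NDUFB8, a subunit of respiratory complex I, at 65.7 FPKM knockout-labelled and 93.02 FPKM wild type (−0.50), and COX15, which makes the heme of cytochrome oxidase, at 17.9 and 23.7 FPKM in the same order (−0.38). ABCC2, the canalicular exporter of conjugated bilirubin and drugs in hepatocytes, was at 84.7 FPKM knockout-labelled and 101.6 FPKM wild type (−0.26). The 4 genes not below 0 were ERLIN1 (0.85), GOLGA7B (0.55, or 1.48 from ends alone), C10orf2, the mitochondrial helicase Twinkle (0.14), and CNNM1 (0.03). ENTPD7, CHUK, BLOC1S2, SLF2 and BTRC lay between −0.11 and −0.01, so low and level genes were interleaved. BLOC1S2 was read from starts, because its ends had no signal in wild type. The start and end sums were within 5% of each other for 17 of the 31 genes. The 407 measured genes of chromosome 10 outside the interval had a median of −0.18, with 73.0% below 0.

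The interval nearest 0, from 49.98 to 68.5 Mb, is gene-poor and also held genes of both signs. HNRNPH3, a splicing regulator, was at 86.8 FPKM in both libraries. ZWINT, a kinetochore protein, was at 43.8 FPKM knockout-labelled and 44.1 FPKM wild type (−0.01), and TFAM, which packages mitochondrial DNA, at 27.8 FPKM knockout-labelled and 29.4 FPKM wild type (−0.08). SIRT1, a deacetylase that depends on NAD, was on the other side of 0 at 11.04 FPKM knockout-labelled and 9.71 FPKM wild type (0.17). At the low end of this interval ANK3, an adaptor of the membrane skeleton, was at 5.38 FPKM knockout-labelled and 9.17 FPKM wild type (−0.67).

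The lowest and highest ratios were read gene by gene. The 10 lowest and the 10 highest are taken from genes above 0 in both libraries with at least 5 FPKM in the larger one. Of the 10 lowest, 2 were on 10p and 8 on 10q, and 7 had start and end sums within 5% of each other in both libraries.

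OLMALINC (chr10:100373597-100383368, plus strand), a long noncoding RNA whose promoter is shown above, was lowest, at 0.697 FPKM in the knockout-labelled library and 7.67 FPKM in wild type (−2.35). Its neighbour upstream, SCD (chr10:100347124-100364834, plus strand), encodes the desaturase that makes monounsaturated fatty acids and is a known target of the sterol-regulated factor SREBP. SCD stood at 87.7 FPKM knockout-labelled and 174 FPKM wild type (−0.98), just short of 2-fold on this scale. NDUFB8, the next measured gene on the far side of OLMALINC, had −0.50, and BLOC1S2, the measured gene before SCD, −0.03. The −0.03 of BLOC1S2 was from starts, at 22.1 FPKM knockout-labelled and 22.6 FPKM wild type. Its ends had no signal in wild type, which can be a failed estimate, so no ratio from ends is given. By its starts alone, the gene beside the low pair had nearly equal values.

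DDIT4 (chr10:72273920-72276036, plus strand), an inhibitor of the growth kinase mTOR that is induced by hypoxia, glucocorticoids and ATF4, stood at 5.25 FPKM in the knockout-labelled library and 21.6 FPKM in wild type (−1.86). GOT1 (chr10:99396870-99430624, minus strand), the cytosolic aspartate aminotransferase of the malate-aspartate shuttle, stood at 19.9 FPKM knockout-labelled and 42.9 FPKM wild type (−1.07). PCGF6 (chr10:103302796-103351139, minus strand), a subunit of a variant Polycomb complex, stood at 8.49 FPKM knockout-labelled and 18.1 FPKM wild type (−1.01). In each of these 3 genes starts and ends gave the same value. CALHM2 (chr10:103446602-103452287, minus strand), of a family of membrane channels that sense calcium and voltage, stood at 4.48 FPKM knockout-labelled and 11.1 FPKM wild type (−1.14).

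For the other 4 low genes the listing of events or the choice of start enters the value. IDI1 (chr10:1039908-1056339, minus strand), the isomerase of the mevalonate pathway that feeds sterol synthesis, stood at 19.9 FPKM knockout-labelled and 51.05 FPKM wild type (−1.32). Its wild-type value is the sum of 2 starts. The start nearer the gene body was at 19.9 FPKM knockout-labelled and 24.1 FPKM wild type, while the start farther upstream had no listed event knockout-labelled and 26.9 FPKM in wild type. Most of the difference therefore lay in the upstream start.

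AIFM2 (chr10:70118008-70133031, minus strand), the ubiquinone reductase that protects membranes from lipid peroxidation, had no end above 0 in either library. From starts alone it stood at 16.9 FPKM knockout-labelled and 48.6 FPKM wild type (−1.48). OPTN (chr10:13099449-13131575, plus strand), a receptor of selective autophagy, was likewise read from starts alone, at 18.4 FPKM knockout-labelled and 46.4 FPKM wild type (−1.29). SRGN (chr10:69086140-69104811, plus strand), the core protein of a secretory granule proteoglycan, stood at 44.7 FPKM knockout-labelled and 104.7 FPKM wild type (−1.21). From its starts alone the direction turned, with 44.7 FPKM knockout-labelled and 25.98 FPKM wild type (0.76), so the direction of SRGN rests on which events are listed.

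**Figure D4:**
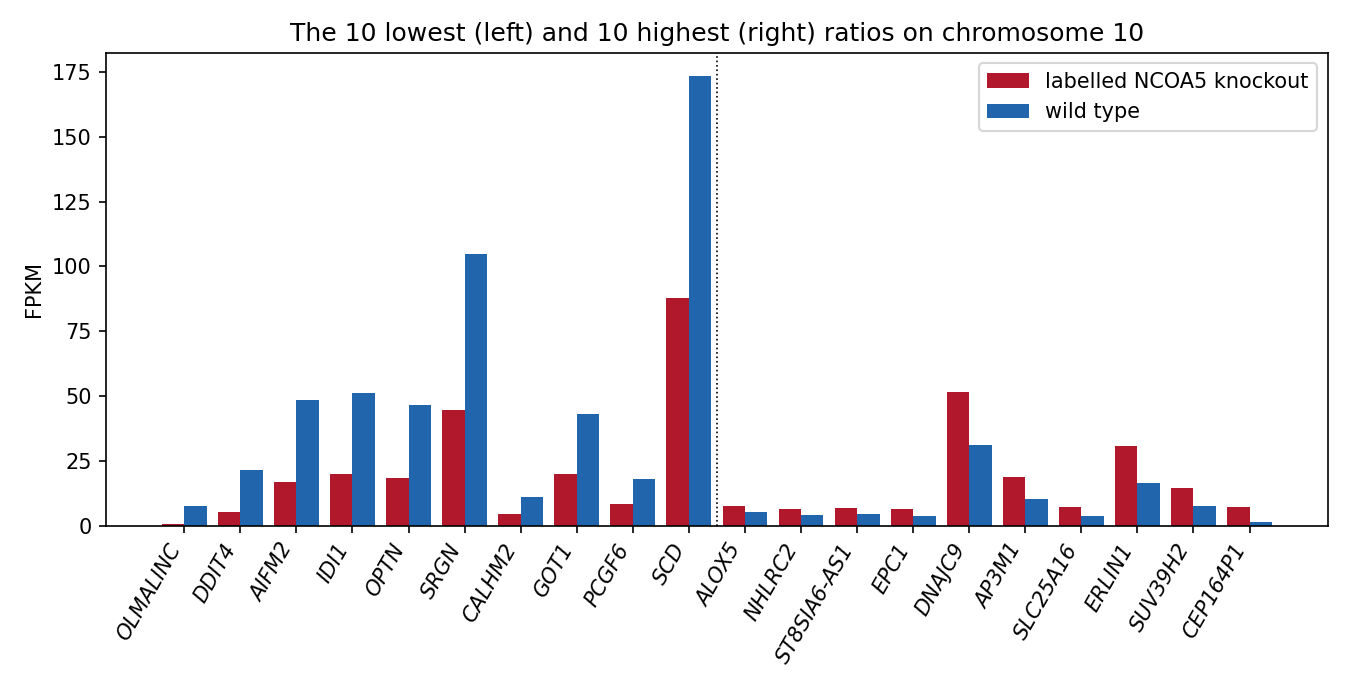
FPKM (vertical axis, from 0) of the 10 genes with the lowest (left of the dotted line) and the 10 with the highest log2 ratio (right) among chromosome 10 genes above 0 in both libraries with at least 5 FPKM in the larger one, each with 1 bar for the knockout-labelled library (red, left) and 1 for wild type (blue, right). OLMALINC, at 0.697 and 7.67 FPKM, has the lowest ratio, and SCD, at 87.7 and 174 FPKM, is the most abundant.

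The highest ratios were smaller in size and less well listed. Of the 10 highest, 3 were on 10p and 7 on 10q, and 3 (SUV39H2, ST8SIA6-AS1 and NHLRC2) had start and end sums within 5% of each other in both libraries. CEP164P1 (chr10:45071247-45076066, minus strand), a transcribed pseudogene of the centriole gene CEP164, stood at 7.13 FPKM knockout-labelled and 1.47 FPKM wild type (1.72), and its reads may be shared with its parent gene. CEP164P1 was read from starts alone, in a locus that names several genes. SUV39H2 (chr10:14878820-14904315, plus strand), a histone methyltransferase of heterochromatin, stood at 14.3 FPKM knockout-labelled and 7.41 FPKM wild type (0.87) from both its starts and its ends. ERLIN1 (chr10:100150094-100188334, minus strand), of a membrane complex that guides the sterol-sensitive breakdown of proteins in the endoplasmic reticulum, stood at 30.7 FPKM knockout-labelled and 16.6 FPKM wild type (0.85). From starts alone, at 30.7 FPKM knockout-labelled and 8.16 FPKM wild type, ERLIN1 had 1.79. A start inside the gene at 17.8 FPKM was listed for ERLIN1 in the knockout-labelled library and had no listed event in wild type.

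SLC25A16 (chr10:68477999-68527516, minus strand), a mitochondrial carrier, stood at 7.33 FPKM knockout-labelled and 3.65 FPKM wild type (0.84). AP3M1 (chr10:74128878-74151063, minus strand), a subunit of an adaptor that sorts vesicles to lysosomes, stood at 18.8 FPKM knockout-labelled and 10.3 FPKM wild type (0.82). Both SLC25A16 and AP3M1 were read from starts alone. DNAJC9 (chr10:73183362-73243519, minus strand), a chaperone of histones, stood at 51.7 FPKM knockout-labelled and 30.95 FPKM wild type (0.72), read from ends alone. The remaining 4 were EPC1, of a histone acetyltransferase complex (0.57), the antisense RNA ST8SIA6-AS1 (0.52), NHLRC2 (0.50) and ALOX5, which starts leukotriene synthesis (0.42), all of 3.89 to 7.59 FPKM. EPC1 was read from starts alone. For ST8SIA6-AS1 the use of strand is not given, so it cannot be told apart from its sense partner.

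The most abundant genes of the chromosome were lower too. RPS24, a protein of the small ribosomal subunit, was highest in level, at 1928 FPKM in the knockout-labelled library and 2456 FPKM in wild type (−0.35). PSAP, the precursor of the saposins that help lysosomal enzymes break down sphingolipids, stood at 458 FPKM knockout-labelled and 548 FPKM wild type (−0.26). USMG5, a small subunit of ATP synthase, stood at 264 FPKM knockout-labelled and 335 FPKM wild type (−0.35). For PSAP and USMG5 starts and ends gave the same value, and RPS24 was read from starts alone.

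The AKR1C cluster on 10p encodes reductases of steroids, bile acids and reactive carbonyls, and its members are near-identical, so reads may be split wrongly among them. AKR1C1 stood at 817 FPKM knockout-labelled and 1318 FPKM wild type (−0.69), AKR1C2 at 334 and 358 FPKM in the same order (−0.10), and AKR1C3 at 166 and 276 FPKM, again in that order (−0.73). A further start of this cluster in wild type, at 953.6 FPKM, could not be assigned to 1 gene, so the wild-type values of the cluster may be too low. These ratios are uncertain.

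In 12 measured genes 1 library was listed at 0 or had no assigned event, 4 of them in the knockout-labelled library and 8 in wild type. Above 0 in both libraries were 426 of 438 measured genes on chromosome 10 and 10559 of 10929 in the whole series, so such genes were not particular to this chromosome. A 0 of this kind can be a failed estimate, and no fold is given. HKDC1, a hexokinase that is induced in liver cancer, had no assigned event knockout-labelled and stood at 42.4 FPKM in wild type. Its locus is merged with that of its neighbour HK1 in the knockout-labelled table, so its value there is unknown. HK1, the housekeeping hexokinase, stood at 46.1 FPKM knockout-labelled and 64.9 FPKM wild type (−0.48). The knockout-labelled value of HK1 is from the merged locus, so this ratio is uncertain as well. All start signal of HK1 lay at the same start in both libraries.

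MASTL, the Greatwall kinase of mitotic entry, was at 10.4 FPKM in the knockout-labelled library and listed at 0 in wild type. The glutamate dehydrogenase pseudogene GLUD1P3 was at 8.98 FPKM knockout-labelled and listed at 0 in wild type, and the AKR1C pseudogene AKR1C7P was at 6.30 FPKM knockout-labelled and had no assigned event in wild type. The other 8 genes were under 5 FPKM in both libraries. BORCS7, RSU1P2 and PBLD had no value above 0 knockout-labelled and 4.14, 3.49 and 1.83 FPKM in wild type. PRKCQ-AS1, LINC00601, FAM13C, METTL10 and AGAP11 were at 1.03 to 1.98 FPKM knockout-labelled and had no value above 0 in wild type. With 0 entered for the missing value all 12 met the 2-fold rule, and so made up 8 of the 9 genes called higher and 4 of the 16 called lower.

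Among the 16 lower genes, 3 more were under 5 FPKM in both libraries. ECHDC3, a mitochondrial protein related to fatty acid enzymes, stood at 0.586 FPKM knockout-labelled and 3.17 FPKM wild type (−1.39). FANK1 stood at 0.336 FPKM knockout-labelled and 2.40 FPKM wild type (−1.35), and the supervillin pseudogene SVILP1 at 0.455 and 2.40 FPKM in the same order (−1.22). Start and end sums differed by more than 5% for all 3, and from ends alone FANK1 had −0.95.

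Starts and ends gave unlike ratios in a part of the genes. Of 271 measured genes with starts and ends above 0 in both libraries, 45 (16.6%) had log2 ratios from starts and from ends that lay more than 0.2 apart, and 24 had opposite signs. Where this holds for a gene described by its role, both ratios are given. The 16.6% has no counterpart here from the other chromosomes. Start and end sums were within 5% of each other in both libraries for 50.2% of measured genes on chromosome 10 and 45.6% elsewhere.

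By role, each of 11 lists of chromosome 10 genes had a median below 0, and genes inside and outside the lists did not differ in their median. The 221 measured genes in at least 1 list had a median of −0.19, as did the 217 genes in none. The lists were drawn up with the results of these libraries known. For comparison, 48.6% of all measured genes were below 0 and 3.66% were lower by 2-fold or more. In each list, members described were taken from the 5 with the highest mean FPKM, whatever their ratio, unless another reason is given.

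Glucose, amino acid and nucleotide metabolism had a median of −0.39 over 20 measured genes, 17 of them below 0, HKDC1 with its missing value among these. Of the members above 0 in both libraries, GOT1 alone was lower by 2-fold or more. PGAM1, a mutase of glycolysis, stood at 173 FPKM knockout-labelled and 202 FPKM wild type (−0.23). PFKP, a phosphofructokinase that commits sugar to glycolysis, stood at 88.5 FPKM knockout-labelled and 117.1 FPKM wild type (−0.40). PPA1, which hydrolyses pyrophosphate, was in the other direction at 107.9 FPKM knockout-labelled and 91.04 FPKM wild type (0.24). PCBD1, which regenerates the cofactor of phenylalanine hydroxylase, had −0.06, and GLUD1, the mitochondrial glutamate dehydrogenase, −0.09.

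Lipid, sterol and drug metabolism had a median of −0.10 over 23 genes, with 14 below 0 and 9 above. It was the list with the most even division and also held 2 of the lowest genes, IDI1 and SCD. The 3 AKR1C reductases, SCD and ABCC2 were its most abundant members. Members above 0 included the lysosomal lipase LIPA, at 32.2 FPKM knockout-labelled and 29.3 FPKM wild type (0.13), and GPAM, of triglyceride synthesis, at 4.21 FPKM knockout-labelled and 3.82 FPKM wild type (0.11), though GPAM had −0.24 from starts alone. LIPA and GPAM were picked with their values in view.

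Genes of mitochondrial function had a median of −0.26, with 22 of 26 below 0 and AIFM2 alone lower by 2-fold or more. GHITM, an inner membrane protein that shapes cristae, stood at 146.5 FPKM knockout-labelled and 192 FPKM wild type (−0.39). PRDX3, the peroxidase of the mitochondrial matrix, stood at 139.5 FPKM knockout-labelled and 176 FPKM wild type (−0.34). ATP5C1, the rotor subunit of ATP synthase, stood at 106 FPKM knockout-labelled and 126 FPKM wild type (−0.25), and VDAC2, an outer membrane channel, had −0.20. In each of these 4 genes starts and ends were within 5% of each other.

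Cell division and DNA maintenance had a median of −0.13, with 18 of 25 genes below 0, and no member above 0 in both libraries differed by 2-fold. BUB3, of the spindle checkpoint, stood at 90.6 FPKM knockout-labelled and 132 FPKM wild type (−0.53). That ratio is from ends, and from starts alone, at 90.6 FPKM knockout-labelled and 94.8 FPKM wild type, it was −0.06. CDK1, the kinase that drives mitosis, stood at 72.6 FPKM knockout-labelled and 79.4 FPKM wild type (−0.13), and CDC123, needed to assemble a translation initiation factor, had −0.13. CEP55, of the last cut of cytokinesis, had −0.19 and BCCIP, a partner of BRCA2, −0.05. The proliferation marker MKI67, named after its values were seen, stood at 21.2 FPKM knockout-labelled and 21.4 FPKM wild type (−0.01).

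RNA processing and protein synthesis had a median of −0.14, with 16 of 22 genes below 0 and 0 beyond 2-fold. After RPS24 came HNRNPF, a splicing regulator, at 136 FPKM knockout-labelled and 167 FPKM wild type (−0.29), or −0.53 from starts alone. GLRX3, a glutaredoxin that handles iron-sulfur clusters, stood in the other direction at 114 FPKM knockout-labelled and 97.1 FPKM wild type (0.23). EIF3A, a subunit of a translation initiation factor, had −0.18 and HNRNPH3 0.0004.

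Protein folding, transport and turnover was the list nearest 0, with a median of −0.06 and 18 of 26 genes below 0. PSAP had −0.26 and DNAJC9 0.72, as given above. TM9SF3, of the Golgi membrane, stood at 64.7 FPKM knockout-labelled and 62.7 FPKM wild type (0.04). VPS26A, of the retromer that recycles receptors, stood at 34.8 FPKM knockout-labelled and 44.8 FPKM wild type (−0.36), and SAR1A, a GTPase of vesicle budding, had −0.15.

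Cytoskeleton, adhesion and matrix had a median of −0.12, with 18 of 22 genes below 0 and 0 beyond 2-fold. ITGB1, the integrin chain shared by most receptors for collagen, laminin and fibronectin, stood at 243 FPKM knockout-labelled and 278 FPKM wild type (−0.20). The membrane-binding annexins ANXA11 and ANXA7 had −0.18 and −0.11, and MYOF, of membrane repair, had −0.19. PDLIM1, of actin stress fibres, had −0.09. Both VIM, a marker of the mesenchymal state, and ZEB1, a factor that drives it, were named with their values in view. VIM stood at 6.32 FPKM knockout-labelled and 6.18 FPKM wild type (0.03, or −0.25 from ends alone), and ZEB1, of the list of transcription genes, at 4.98 FPKM knockout-labelled and 7.86 FPKM wild type (−0.57).

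Growth, death and inflammatory signalling had a median of −0.22, and 16 of 17 genes were below 0, with 0 beyond 2-fold. DKK1, a secreted inhibitor of Wnt signalling that is raised in many liver cancers, stood at 110 FPKM knockout-labelled and 131 FPKM wild type (−0.26). PDCD4, a repressor of translation, stood at 25.6 FPKM knockout-labelled and 40.1 FPKM wild type (−0.63, or −1.53 from ends alone), and LZTS2, an inhibitor of Wnt signalling, at 21.9 FPKM knockout-labelled and 37.9 FPKM wild type (−0.77). SHOC2, a scaffold of the RAS pathway, had −0.12. The gene above 0 was INPP5F, a phosphoinositide phosphatase, with 0.15.

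Transcription and chromatin had a median of −0.25 over 30 genes, with 22 below 0 and PCGF6 alone lower by 2-fold or more. HHEX, a homeobox factor of liver development, stood at 47.4 FPKM knockout-labelled and 56.7 FPKM wild type (−0.25). WAC, an adaptor of histone ubiquitination, had −0.29. NCOA4, a coactivator and the receptor for ferritin breakdown, stood at 41.7 FPKM knockout-labelled and 48.4 FPKM wild type (−0.21). BMI1, a Polycomb protein, had −0.25 and CTBP2, a corepressor, −0.26. The zinc finger genes on both sides of the centromere were low in level, at 1.01 to 12.6 FPKM, and their median was −0.21, with 6 of 9 below 0. Of their 5 most abundant members ZNF32 had −0.40, ZNF22 −0.21, ZNF33A −0.49, ZNF37A 0.05 and ZNF487 0.49.

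The list of known ATF4, hypoxia or sterol targets had the lowest median, −0.43, with 8 of 9 genes below 0 and 3 lower by 2-fold or more (DDIT4, IDI1 and GOT1), where 48.6% and 3.66% of all measured genes were. The list was drawn up with the values of these genes known, so it is not independent evidence. BNIP3, a hypoxia target of mitophagy, stood at 82.7 FPKM knockout-labelled and 88.5 FPKM wild type (−0.10). From starts alone it was at 54.4 FPKM knockout-labelled and 88.5 FPKM wild type (−0.69). PFKFB3, which raises glycolysis through a signalling sugar, stood at 31.7 FPKM knockout-labelled and 42.6 FPKM wild type (−0.42). ALDH18A1, of proline synthesis, was the member above 0, at 26.7 FPKM knockout-labelled and 26.1 FPKM wild type (0.03). With these 9 genes left out the other 429 measured genes had a median of −0.19.

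**Figure D5:**
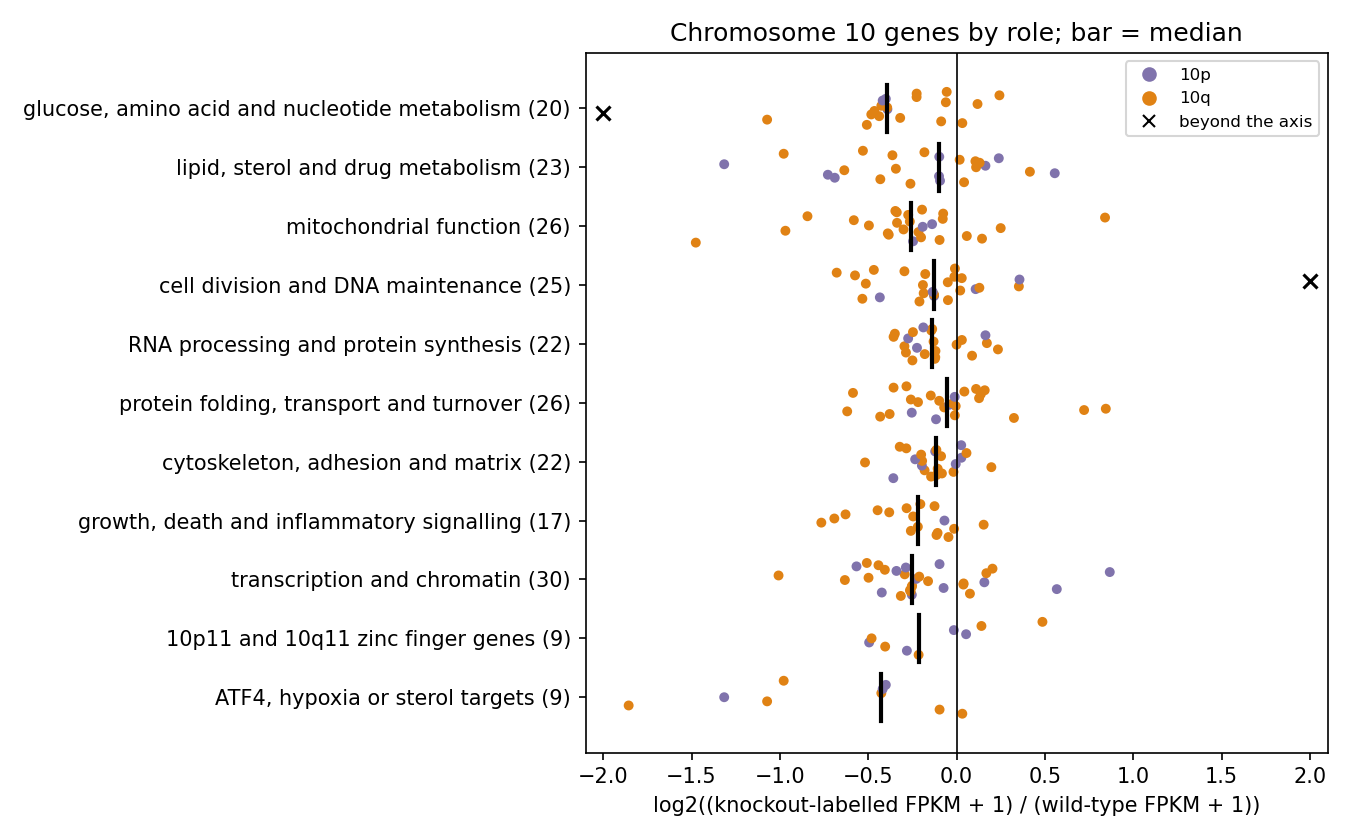
Log2 ratio (horizontal axis) of each measured member of 11 lists of chromosome 10 genes by role, with the number of measured members in brackets, the median as a black bar, and 10p genes in purple and 10q genes in orange. All 11 medians lie left of 0, from −0.43 for ATF4, hypoxia or sterol targets to −0.06 for protein folding, transport and turnover, and the crosses at the edges are HKDC1 and MASTL, listed at 0 or with no assigned event in 1 library.

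Within genes, the choice among listed starts also differed between the libraries. With at least 5 FPKM of start events in both libraries, 284 genes could be compared, and 113 (39.8%) used more than 1 start, each carrying 10% or more of the gene in at least 1 library. The most used start was the same in 82 of the 113 and another in 31 (27.4%). On the other chromosomes 2436 of 7042 genes (34.6%) used more than 1 start, and 24.5% of the 2436 had another main start. How often 2 libraries of the same cells would differ in this way was not measured.

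GTPBP4, a GTPase of ribosome assembly, shows such a case. Its start at 988019 to 988527 carried 36.3 FPKM knockout-labelled and 7.69 FPKM wild type, while its start at 988706 to 988948 was at 0 knockout-labelled and at 34.9 FPKM in wild type. The totals were 36.3 FPKM knockout-labelled and 42.6 FPKM wild type (−0.22). ARHGAP21, a GTPase-activating protein of the Golgi, was alike, with 100% of its start signal in 1 start in the knockout-labelled library and 16.3% in that start in wild type, and totals of 23.04 FPKM knockout-labelled and 25.1 FPKM wild type (−0.12). BMPR1A, a receptor of bone morphogenetic proteins, had 89.1% of its starts knockout-labelled at an exon that had no listed event in wild type, and a total ratio of −0.05. These genes were named after their values were seen.

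At the threshold of 1 FPKM the members were as follows. The 6 genes just inside, AGAP11, IFIT2, MMRN2, STOX1, TACR2 and ZNF485, reached 1.02 to 1.22 FPKM in the larger library, with a median log2 ratio of −0.28. The 4 just outside, ARHGAP22, ASAH2, PLCE1 and PRKG1-AS1, reached 0.822 to 0.988 FPKM, with a median of 0.05.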

How the data were processed

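Poly-A RNA of 2 libraries, 1 knockout-labelled and 1 wild type, had 12 cycles of PCR and paired ends of 100 bases, per the labels' protocols. The authors deposited FPKM per start, end or splicing event of each locus, per the file headers, in 322588 knockout-labelled and 322464 wild-type events. The submitters' processing notes name hg38 and Bowtie 0.12.2, with no role. What program listed the events, with which annotation, filters and strand setting, is not given in the sources used here. Without read counts in the tables, depth is unknown and intervals cannot be given.

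Start and end events of chromosome 10 numbered 4552 knockout-labelled and 4537 wild type, of which 4535 and 4513 carry a symbol. Where a locus names several symbols, as for 73 measured genes, events were given to the gene with a GENCODE 29 exon boundary at the junction, or else to the 1 gene of that strand whose body overlaps it. This left 64 (1.41%) knockout-labelled and 66 (1.46%) wild-type events unassigned. No rescaling was done. The pseudocount was 1 FPKM.

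The members, lists and promoters were chosen with earlier results of these data known. Named genes were the 10 lowest and 10 highest ratios of genes above 0 in both libraries with at least 5 FPKM in the larger, the 5 of highest mean FPKM, up to 5 of highest mean FPKM in each of 11 lists, and genes of at least 5 FPKM listed at 0 in 1 library. Some genes that these choices name are left out of the text. Other names are given for their position, as examples or as neighbours. The tools were numpy 2.4.6, pandas 2.3.3, scipy 1.17.1 and matplotlib 3.10.9 under Python 3.11.15, and the steps were checked first on simulated data with a known shift. Alternatives were other pseudocounts, scalings, event sums, gene filters, fold thresholds and window widths, set out in the plan, and the names of merged loci used whole, added after the data were seen.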

Additional observations from a re-analysis of the deposited data

How the results depend on the processing

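With 1 library per genotype there was no replicate to leave out. No paired analysis was possible because each group has 1 library, so fewer than 2 replicate numbers are shared. The median of chromosome 10 stayed below 0 in 13 alternatives, from −0.21 to −0.10, and relative to the median of all genes in the same setting from −0.22 to −0.11. Its value of −0.10, and that of −0.10 for 10q, came with no minimum level, which adds genes near 0 FPKM. The 10p median ran from −0.19 to −0.098 over 14 alternatives. The share below 0 was 80.1% at a minimum of 5 FPKM, 67.9% with no minimum and 69.6% with each library scaled to the same sum. Every 10 Mb window was below 0 in each alternative, except that 13 of 14 were so with the largest single event and with scaling to the same sum, and all 21 windows of 5 Mb were. Counts past the fold threshold moved most. The count of higher genes (9 as reported) was 1 among genes above 0 in both libraries, 19 from ends alone, 17 at 1.5-fold, 14 scaled to the same sum, 4 each at a minimum of 5 FPKM, from loci of 1 symbol and with the names of merged loci used whole, and 3 each among protein-coding genes and where the 2 sums agree. The count of lower genes (16 as reported) was 51 at 1.5-fold, 25 with a pseudocount of 0.1 FPKM, 10 at a minimum of 5 FPKM and 8 where the sums agree. Filters leave fewer genes to call, and the cause of the other shifts was not tested. Genes compared on chromosome 10 numbered 426 above 0 in both libraries and 310 from ends alone. They numbered 331 at a minimum of 5 FPKM and 220 where the sums agree. The shares called over all genes in these settings are not given, so the counts cannot be set against them.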
